A study of Mus musculus with 11 samples.

Results

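The nuclear-encoded respiratory chain genes comprised 85 of the 55536 Ensembl genes counted in CD4Cre R26-tdT mouse epidermal cells. The rule for the set used names and biotypes, and the set was chosen with earlier results of these data known: protein-coding genes with an Ndufa, Ndufb, Ndufc, Ndufs, Ndufv, Uqcr, Atp5 or Cox4 to Cox8 symbol, and the Sdh genes. Of 97 symbols that matched, 12 were left out as not protein-coding. They were 11 processed pseudogenes with at most 7 counts in any library, and Ndufb1-ps, annotated as a non-coding RNA, with 410 to 2008 counts. Genes were placed in a complex by symbol alone, so Ndufa4 and Ndufa4l2 stand under complex I by name only. The set held 37 genes of complex I, 4 of complex II, 8 of complex III, 18 of complex IV and 18 of complex V.

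The respiratory chain of the inner mitochondrial membrane passes electrons from NADH (complex I, NADH dehydrogenase) and succinate (complex II, succinate dehydrogenase) through complex III (cytochrome bc1) to oxygen at complex IV (cytochrome c oxidase). The proton gradient built on the way drives complex V, the ATP synthase. Most subunits are encoded in the nucleus and imported, whereas a small catalytic core is encoded by mitochondrial DNA. Several nuclear subunits exist as a broadly expressed form and a form restricted to certain tissues or conditions. Hair follicle stem cells of the bulge are known for their glycolytic metabolism.

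All cells came from the dorsal skin of male CD4Cre R26-tdT mice on a C57Bl6/N background, aged 29 weeks for replicate 1 and 32 weeks for replicates 2 and 3, with 2 mice pooled per replicate. All groups, tdTneg included, carried both alleles. CD4Cre acts where the Cd4 promoter is or has been active, T cells included, and the recombined R26 reporter stays on in the progeny, so tdT marks a lineage and not current CD4 expression. Keratinocytes were sorted as CD49f+CD34+SCA-1neg cells, the bulge gate (3 tdT+ and 3 tdTneg libraries), and as CD49f+CD34+SCA-1+ cells (3 tdT+ and 2 tdTneg libraries). The design asks how the SCA-1+ cells differ from bulge cells, and how tdT+ cells differ from tdTneg cells within each gate.

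Totals ranged from 17409131 to 46542177 counts per library. The files list 1 row besides the Ensembl genes, under an identifier without a gene name. It took 0.0133 to 0.0307% of counts in 5 of the 6 tdT+ libraries and 0.000254 to 0.000489% in the tdTneg libraries. The library labelled tdT+ bulge replicate 2 held 37 such counts (0.000205%), near the tdTneg libraries and unlike the other tdT+ ones, and the counts and medians of the set that it moves are also given without it. Summed over 7 bulge markers (among them Cd34, Lhx2, Sox9 and Lgr5), levels were 5351 to 10768 CPM (the share of a library's counts, scaled by its TMM factor) in bulge libraries and 720 to 3671 CPM in SCA-1+ libraries. The 8 interfollicular markers (among them Ly6a, which encodes SCA-1, Krt1 and Krt10) gave 1357 to 4742 and 3848 to 10903 CPM. Ly6a encodes the antigen used for the sort. In this list Klf4 went the other way in tdTneg cells (866 to 1148 CPM in bulge, 604 and 634 CPM in SCA-1+). Sbsn overlapped between the gates (273 to 510 CPM in bulge, 232 to 535 CPM in SCA-1+). All 6 endothelial markers, Pecam1 and Cdh5 among them, summed to 3649 and 3889 CPM in the tdTneg SCA-1+ libraries against 10.1 to 810 CPM elsewhere. The 8 T cell markers summed to 512 to 1200 CPM in tdT+ SCA-1+ libraries against 26.9 to 195 CPM in the other groups. Within the SCA-1+ gate, tdT+ and tdTneg libraries also did not overlap in the sums of bulge (720 to 1393 against 2263 to 3671 CPM), interfollicular (8130 to 10903 against 3848 to 7604 CPM), keratinocyte (34690 to 39268 against 24577 to 27858 CPM), Langerhans cell (345 to 420 against 563 to 723 CPM) and dissociation response genes (13941 to 18000 against 12256 to 12372 CPM), nor in those of melanocyte (15.9 to 24.5 against 35.9 to 57.1 CPM), pericyte (138 to 193 against 203 to 294 CPM) and muscle markers (4.29 to 6.92 against 3.38 to 3.47 CPM).

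Summed over the set, subunit mRNA took 0.535 to 0.861% of all gene counts. In tdTneg bulge cells the 3 libraries held 5334, 6534 and 6943 CPM, and in tdT+ bulge cells 6444, 5168 and 5812 CPM. In tdTneg SCA-1+ cells they held 5316 and 5454 CPM, and in tdT+ SCA-1+ cells 6416, 8498 and 6261 CPM. Replicate 2 of the tdT+ SCA-1+ cells stood above every other library. On this scale all 3 tdT+ SCA-1+ libraries lay above both tdTneg SCA-1+ libraries, while both groups overlapped with the bulge libraries once replicate 2 was set aside. Summed as TPM (counts per base of the union of exons, scaled to a common total), tdT+ and tdTneg SCA-1+ libraries overlapped (9724 to 14566 against 8613 and 10343 TPM), and every tdTneg bulge library (9062 to 13324 TPM) lay above every tdT+ bulge library (6843 to 8962 TPM). These are shares of sequenced RNA, in which fewer cells of a type and less RNA per cell cannot be told apart.

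**Figure D1:**
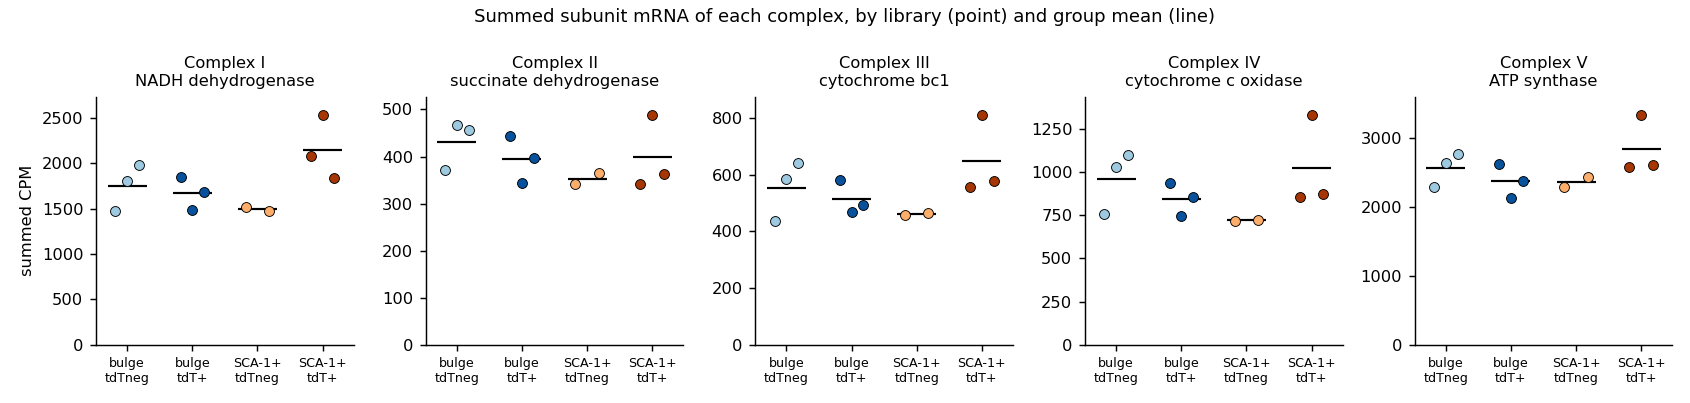
Summed CPM of the nuclear-encoded subunits of each complex (y axis, from 0) in the 11 libraries (points) by group, with the group mean as a line. In all 5 complexes tdT+ SCA-1+ replicate 2 was the highest library, and its total over the set was 8498 CPM.

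Between genes, levels were compared as TPM, as means over the 11 libraries. In complex V the highest gene was Atp5a1, the alpha subunit of the catalytic F1 part (647 TPM ± 111 SD). The lowest of those tested was Atp5g2 (2.64 TPM ± 1.36 SD), 1 of 3 genes for the membrane c subunit. With the longest transcript as length it was Atp5l (3.25 TPM, against 4.80 TPM for Atp5g2). In complex IV Cox8a was highest (570 TPM ± 138 SD) and Cox7a1, a form known from muscle, was the lowest of those tested (1.93 TPM ± 1.12 SD). In complex III the range ran from Uqcrb (54.5 TPM ± 13.7 SD) to Uqcrh (239 TPM ± 75.5 SD), and in complex II from Sdhc (78.9 TPM ± 15.4 SD) to Sdhd (166 TPM ± 38.7 SD), the membrane anchors. In complex I Ndufb4 was lowest (5.95 TPM ± 2.03 SD). The handling of multimapping reads is not given, so the lowest values need not reflect low transcript levels. Among the genes placed in complex I by symbol, Ndufa4l2 was highest at a mean of 510 TPM, but ranged from 47.4 to 1931 TPM over libraries. It ranked 1 of 37 in SCA-1+ cells (967 TPM) and 8 of 37 in bulge cells (129 TPM). Next to Atp5a1 in complex V stood Atp5b, the F1 beta subunit, at 579 TPM ± 123 SD. These SDs are over libraries and do not measure the spread of a difference between genes within libraries. With the longest transcript as length Atp5b led complex V (1049 against 622 TPM), as Cox4i1 led complex IV and Sdhb complex II.

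Of the 85 genes, 79 passed the filter on low counts. The others were Cox4i2, Cox6a2, Cox7b2, Cox8b and Cox8c, forms of complex IV subunits restricted to lung, muscle, testis or other tissues, and a second gene under the symbol Atp5o with no count in any library, all of whose exonic bases are shared on the same strand with Donson (54.2%) or the first Atp5o (45.8%), so that its 0 does not show a lack of transcript. Cox4i2 had at most 14 counts in a library, Cox6a2 at most 2, Cox8b and Cox8c at most 1, and Cox7b2 had 0 counts in every library. The broad partners of these forms were all abundant, from 94.5 TPM in the lowest library of Cox7b to 809 TPM in the highest of Cox8a. The 8 muscle markers summed to 3.22 to 27.7 CPM and the 6 adipocyte markers to 0 to 1.19 CPM.

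Comparing SCA-1+ with bulge cells as the mean over tdT status, 1 of the 79 subunit genes was higher and 3 were lower at an adjusted p under 0.05. All genes tested gave 8.88% higher and 10.4% lower, so both member shares lay below the background. Ndufa4l2 was higher in SCA-1+ cells, and Ndufa11, Cox6b2 and Ndufs4 were lower. With the additional threshold of an absolute log2 fold change over 1, 1 was higher (background 4.77%) and 2 were lower (background 6.79%). In 1 gene every SCA-1+ library lay above every bulge library (background 5.1%) and in 2 genes below (background 5.67%). The median log2 fold change was -0.13 over the set and -0.09 over all 20307 genes. Without tdTneg bulge replicate 3 it was -0.05 (all genes -0.08), without tdT+ bulge replicate 1 -0.08 (all genes -0.05), without tdT+ SCA-1+ replicate 2 -0.20 (all genes -0.09), and without tdT+ SCA-1+ replicate 1 or 3 -0.09 (all genes -0.11 and -0.09). Without the library labelled tdT+ bulge replicate 2 the median was -0.18 (all genes -0.08). In that fit 5 genes were called (6.33%, beside 17.5% of all genes). The set therefore lay on either side of all genes, depending on the library left out. In 71 of the 79 genes the 95% confidence interval lay within ±1 on the log2 scale.

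**Figure D2:**
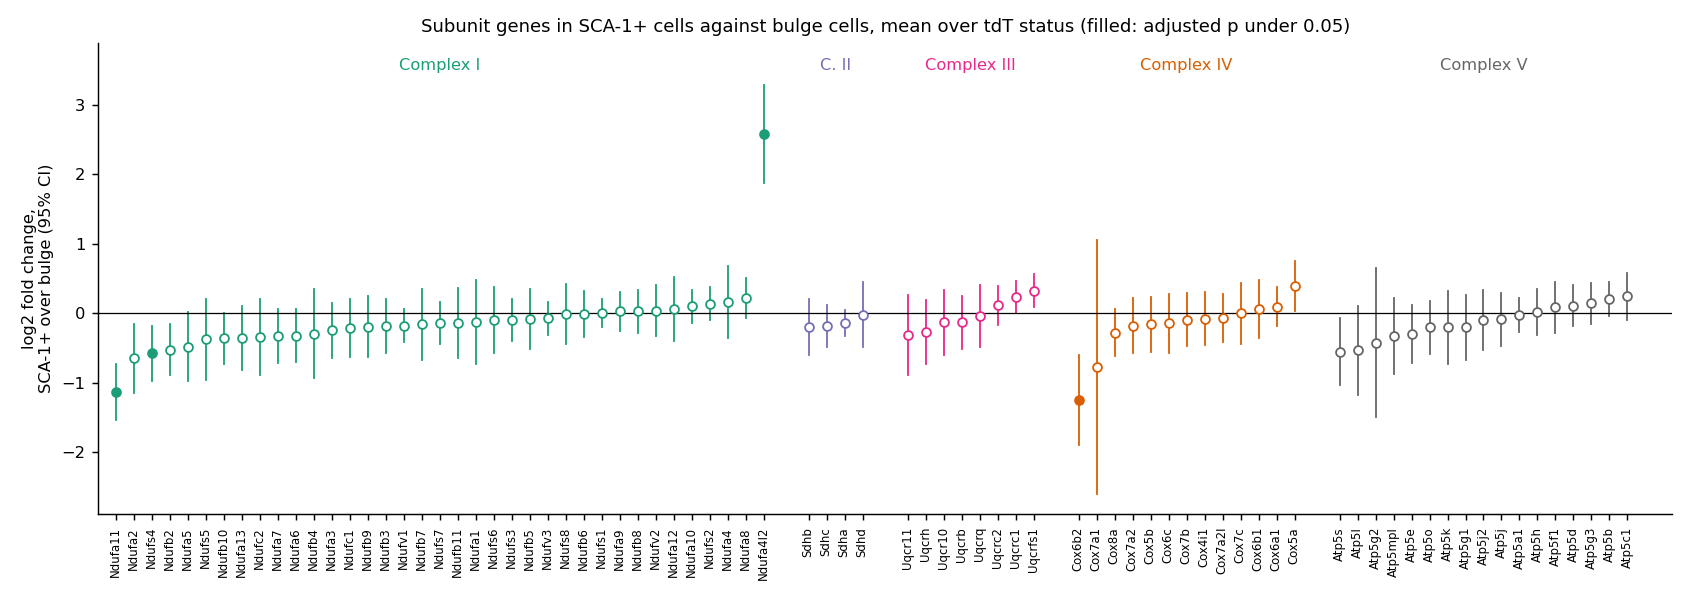
Log2 fold change of SCA-1+ over bulge cells, mean over tdT status (y axis), for the 79 tested genes ordered within each complex (x axis), with bars for the 95% confidence interval and filled points for an adjusted p under 0.05. Ndufa4l2 at 2.58 stands far above the other genes placed in complex I by symbol, most of which lie near 0.

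Promoter sequences are shown for the genes that changed, with the cores bound by factors known to regulate respiratory genes in capitals. They come from RefSeq (GRCm38.p6), in a table that held 68 of the 84 symbols, Ndufa4l2 not among them. The 150 bases before the start of Ndufa11 (chr17:56717612-56717761, plus strand) hold the NRF1 core CGCATGCG, and those of Cox6b2 (chr7:4753095-4753244, minus strand) hold none of the 3 cores searched. Windows of 28 bases are given around the cores of Cox6b1, the broad partner of Cox6b2 (ETS/GABP core CCGGAAG, on the opposite strand, chr7:30626125-30626152, minus strand), Ndufs4 (YY1 core AAGATGG, chr13:114388045-114388072, minus strand) and Uqcrc1 (NRF1 core, chr9:108936669-108936696, plus strand).
Ndufa11: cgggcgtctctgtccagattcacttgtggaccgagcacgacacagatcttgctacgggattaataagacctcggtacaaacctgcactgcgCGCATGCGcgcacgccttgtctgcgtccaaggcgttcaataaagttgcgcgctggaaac
Cox6b2: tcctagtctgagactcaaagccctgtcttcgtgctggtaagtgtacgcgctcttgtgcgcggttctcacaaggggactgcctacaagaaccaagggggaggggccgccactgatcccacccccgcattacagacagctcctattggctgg
Cox6b1: cctctcgcagCTTCCGGccagtcggaat
Ndufs4: gtttgcctacaggAAGATGGcggcggtc
Uqcrc1: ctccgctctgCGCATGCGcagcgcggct
Over windows of 300 bases (250 before to 50 after the start, both strands), the NRF1 core, which is its own reverse complement, was in 9 of 68 members (13.2%) and in 2.07% of all 27025 genes in the table. The ETS/GABP core was in 16 members (23.5%) against 9.93% of all genes, and the YY1 core in 11 (16.2%) against 7.28%. Before the start only, the shares were 10.3% against 1.75%, 17.6% against 7.83% and 1.47% against 5.18%, so 10 of the 11 members with the YY1 core held it at or after the start. These matches are letters in a window and were not tested for binding.

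Ndufa4l2 (ENSMUSG00000040280, chr10:127514967-127517154, GRCm38, plus strand) encodes a paralogue of the subunit NDUFA4 that is known as a target of hypoxia-inducible factor. Its level in bulge cells was 52.9, 22.2 and 25.95 CPM in the tdTneg libraries and 78.1, 87.6 and 45.6 CPM in the tdT+ libraries. In SCA-1+ cells it was 268 and 139 CPM in the tdTneg libraries and 579, 392 and 286 CPM in the tdT+ libraries. Every SCA-1+ library lay above every bulge library. The means were 333 CPM ± 164 (SD, n = 5) and 52.1 CPM ± 26.7 (SD, n = 6), a log2 fold change of 2.58 (SE 0.31, edgeR quasi-likelihood test, adjusted p = 0.000633). The gene passed in each of the 11 fits without 1 library, with log2 fold changes of 2.30 or more over all alternatives, the fit without the library labelled tdT+ bulge replicate 2 included.

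Within tdT+ cells the log2 fold change was 2.57 (SE 0.43, edgeR adjusted p = 0.00487) and within tdTneg cells 2.60 (SE 0.46, adjusted p = 0.0136). The difference between the 2 was -0.03 (95% interval -1.38 to 1.33). Without tdTneg bulge replicate 3 the adjusted p within tdTneg cells was 0.0656, and without tdTneg SCA-1+ replicate 1 it was 0.142. Markers of pericytes, a cell type in which this gene is known to be abundant and a list added after its values were seen, summed to 311 to 483 CPM over 7 genes in bulge libraries and 138 to 294 CPM in SCA-1+ libraries. Most of that sum was Cspg4 and Notch3. Cspg4 was at 242 to 442 CPM in bulge and 42.8 to 196 CPM in SCA-1+ libraries. Notch3 went the other way, at 22.9 to 53.8 CPM in bulge and 91.0 to 128 CPM in SCA-1+ libraries. Rgs5, Higd1b, Kcnj8, Abcc9 and Pdgfrb were at 24.2 CPM or less in every library. The part of that cell type in the result was not tested. The 32 exonic bases that Ndufa4l2 shares with Shmt2 on the opposite strand made up 2.92% of its exons, and Shmt2 had a log2 fold change of 0.18 (SE 0.13, adjusted p = 0.359).

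The paralogue Ndufa4, which encodes the broadly expressed subunit, was not called. Its level was 53.0 CPM ± 13.8 (SD, n = 6) in bulge and 60.8 CPM ± 19.4 (SD, n = 5) in SCA-1+ cells, with overlapping libraries and a log2 fold change of 0.16 (95% interval -0.35 to 0.68). Per length, Ndufa4l2 took 33.8 to 66.5% (median 58.9%) of the pair in bulge libraries and 75.7 to 94.2% (median 86.3%) in SCA-1+ libraries. The 2 ranges did not overlap.

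Ndufa11 (ENSMUSG00000002379, chr17:56717767-56722141, plus strand) encodes an accessory membrane subunit of complex I. It was at 62.9, 72.7 and 84.5 CPM in tdTneg and 53.8, 54.6 and 93.9 CPM in tdT+ bulge libraries, and at 31.8 and 28.0 CPM in tdTneg and 29.7, 42.0 and 30.9 CPM in tdT+ SCA-1+ libraries. All SCA-1+ libraries lay below all bulge libraries. The log2 fold change was -1.14 (SE 0.18, edgeR adjusted p = 0.00241), and it passed without each of the 11 libraries. It was -0.98 (SE 0.24, edgeR adjusted p = 0.0258) within tdT+ and -1.29 (SE 0.28, adjusted p = 0.0268) within tdTneg cells. The call within tdT+ cells was lost without tdT+ bulge replicate 3 (-0.67, adjusted p = 0.0523), tdT+ SCA-1+ replicate 1 (0.0846) or replicate 3 (0.0858), and in a fit of only these groups (0.0565). Within tdTneg cells it was lost without tdTneg bulge replicate 3 (0.0977), tdTneg SCA-1+ replicate 1 (0.166) or replicate 2 (0.187). Vmac, on the opposite strand, shares 70 bases (6.41%) of its exons, and was lower too, by a log2 fold change of -1.11 (SE 0.23, adjusted p = 0.00961). The strand setting of the counting is not given in the sources used here, and reads of the shared bases cannot be told apart.

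Cox6b2 (ENSMUSG00000051811, chr7:4751792-4753094, minus strand), the form of subunit 6b known from testis, was at 9.08, 6.26 and 10.6 CPM in tdTneg and 6.52, 5.89 and 4.90 CPM in tdT+ bulge libraries. In SCA-1+ cells it was at 3.67 and 2.72 CPM in tdTneg and 1.68, 2.89 and 3.66 CPM in tdT+ libraries, all below the bulge libraries. The log2 fold change was -1.25 (SE 0.29, edgeR adjusted p = 0.0157). Without tdTneg SCA-1+ replicate 1 the adjusted p was 0.0632, and without replicate 2 it was 0.102. Its partner Cox6b1 differed by 0.06 (95% interval -0.36 to 0.48), and Cox6b2 made up 3.80 to 6.68% of the pair per length in bulge and 1.17 to 2.99% in SCA-1+ libraries. With the longest transcript as length, the medians were 7.50 and 3.60% in place of 4.68 and 2.21%. Cox7a1, the other restricted form that passed the filter, made up 0.436 to 2.78% of its pair with Cox7a2 in bulge and 0.0749 to 1.84% in SCA-1+ libraries, which overlapped.

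Ndufs4 (ENSMUSG00000021764, chr13:114287795-114388258, minus strand) encodes an accessory subunit of the matrix arm of complex I, whose loss is known to cause mitochondrial disease. It was at 40.3, 46.8 and 66.7 CPM in tdTneg and 56.1, 39.1 and 58.5 CPM in tdT+ bulge libraries, and at 33.0 and 26.5 CPM in tdTneg and 37.8, 46.8 and 33.7 CPM in tdT+ SCA-1+ libraries. The libraries overlapped, and the log2 fold change was -0.58 (SE 0.18, edgeR adjusted p = 0.0444). Blocking on the replicate number moved the adjusted p to 0.0875, and the call was also lost with RLE size factors (0.05004), library size only (0.0616) and limma voom (0.103). It passed in 3 of the 11 fits without 1 library (tdT+ bulge replicate 2, tdTneg bulge replicate 1 or tdT+ SCA-1+ replicate 2), where the largest adjusted p was 0.212, without tdTneg SCA-1+ replicate 2.

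**Figure D3:**
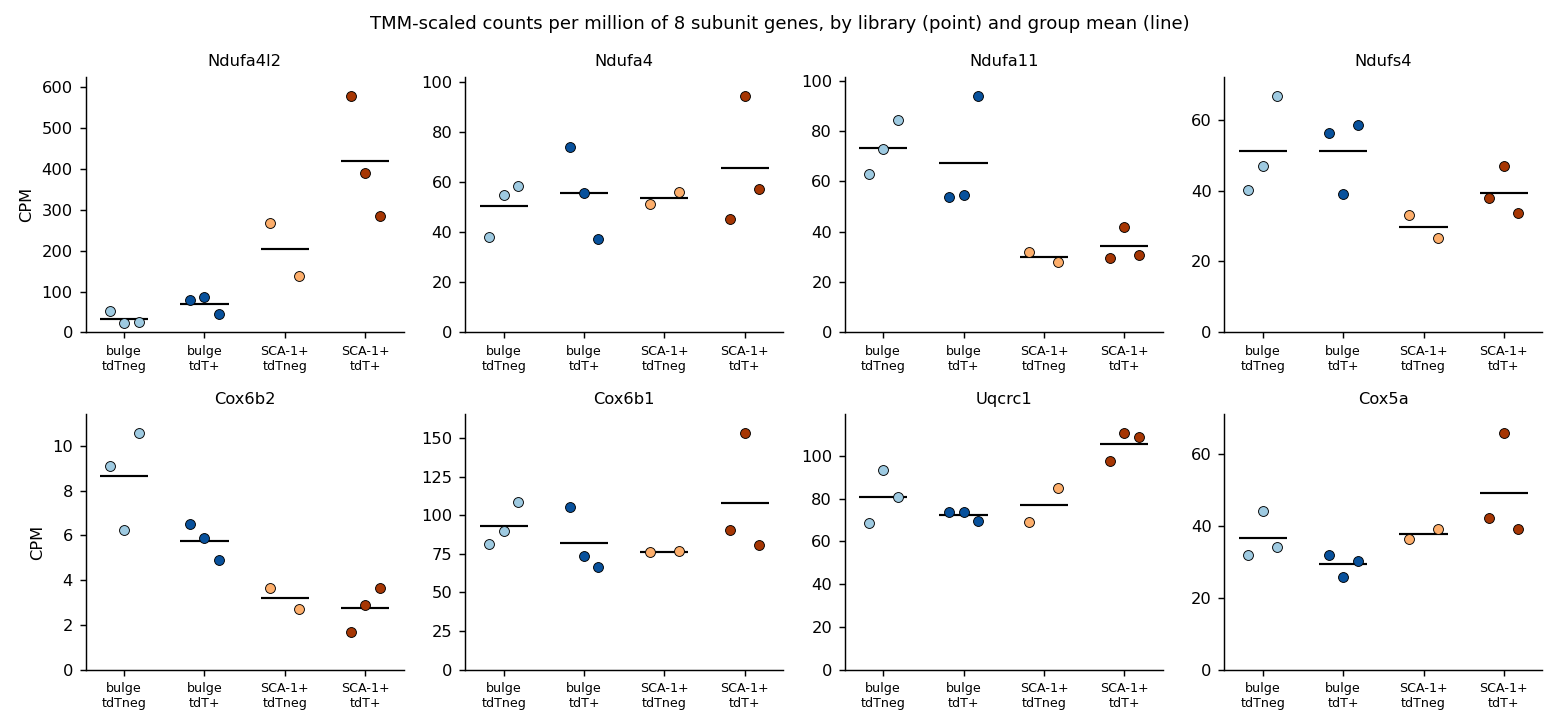
CPM (y axis, from 0) of Ndufa4l2, Ndufa4, Ndufa11, Ndufs4, Cox6b2, Cox6b1, Uqcrc1 and Cox5a in the 11 libraries (points) by group, with group means as lines. Ndufa4l2 is above 139 CPM in all SCA-1+ libraries and under 88 CPM in all bulge libraries, while Ndufa4 overlaps.

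The 14 nuclear-encoded genes listed as core subunits had no call in this comparison in edgeR. The list was drawn up for redox centres, catalytic sites or main structural folds. At an unadjusted p under 0.05, 2 were higher and 0 lower (background 14.7% and 19.7%), DESeq2 called 1 (background 28.2%) and limma voom 2 (background 23.5%). Their median log2 fold change was -0.02 and their range -0.20 to 0.39. Values near 0 were found for Ndufs1, which carries iron-sulfur clusters of complex I (log2 fold change 0.01, 95% interval -0.20 to 0.21), and Atp5a1 (-0.03, -0.27 to 0.21). Cox5a was at 0.39 (0.04 to 0.75, adjusted p = 0.112) and Uqcrfs1, the Rieske protein of complex III, at 0.32 (0.08 to 0.56, adjusted p = 0.0607). By complex the medians were -0.15 in complex I, -0.16 in complex II, -0.08 in complex III, -0.09 in complex IV and -0.10 in complex V, each over the tested genes.

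Within tdT+ cells 2 subunit genes were higher (background 5.66%) and 1 was lower (background 6.64%) in SCA-1+ cells. Besides Ndufa4l2 and Ndufa11, the call was Uqcrc1 (ENSMUSG00000025651, chr9:108936633-108949623, plus strand), a core protein of complex III. Its tdT+ libraries held 73.6, 73.6 and 69.4 CPM in bulge and 97.3, 110 and 109 CPM in SCA-1+ cells, without overlap. Its log2 fold change was 0.55 (SE 0.14, edgeR adjusted p = 0.0310). It passed in 5 of 11 fits without 1 library. The call was lost without any 1 of the 3 tdT+ bulge libraries (0.0678 without the library labelled replicate 2), tdTneg bulge replicate 3 (0.0518), or tdT+ SCA-1+ replicate 2 (0.0795) or 3 (0.0829). It was also lost with RLE size factors (0.0509), limma voom (0.0714), a filter of 1 count in any library (0.141) and a fit of only these groups (0.0586). Within tdTneg cells it was at 68.5, 93.5 and 80.6 against 68.9 and 85.1 CPM, a log2 fold change of -0.07 (SE 0.16). The difference of its 2 effects was 0.62 (SE 0.21, adjusted p = 0.260).

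Within tdTneg cells 1 subunit gene was higher (Ndufa4l2, background 3.84%) and 1 lower (Ndufa11, background 1.94%). The set as a whole lay lower in this comparison: 71 of 79 fold changes were negative, with a median of -0.43 against -0.13 over all genes. The endothelial markers separated the same groups, at 3649 and 3889 CPM in tdTneg SCA-1+ against 27.1 to 105 CPM in tdTneg bulge libraries, as did T cell (185 and 195 against 26.9 to 38.7 CPM) and Langerhans cell markers (563 and 723 against 15.04 to 100.2 CPM). Interfollicular markers (3848 and 7604 against 1357 to 2742 CPM) and proliferation genes (540 and 710 against 368 to 441 CPM) were also higher in both tdTneg SCA-1+ libraries. Lower in both were the sums of keratinocyte (24577 and 27858 against 29331 to 32528 CPM), dissociation response (12256 and 12372 against 15352 to 18705 CPM), pericyte (203 and 294 against 422 to 483 CPM), bulge (2263 and 3671 against 6087 to 10768 CPM), melanocyte (35.9 and 57.1 against 104 to 160 CPM), sebaceous (155 and 306 against 310 to 1392 CPM) and adipocyte genes (0 and 0.0837 against 0.31 to 1.19 CPM). The part of any of these in the result was not tested. Within tdT+ cells 59 of 79 were positive, with a median of 0.17 against -0.07 over all genes. There the T cell (512 to 1200 against 87.2 to 112 CPM) and keratinocyte markers (34690 to 39268 against 21205 to 28257 CPM) were higher in every SCA-1+ library, as were interfollicular markers (8130 to 10903 against 2772 to 4742 CPM) and proliferation genes (420 to 831 against 301 to 384 CPM). Bulge (720 to 1393 against 5351 to 10232 CPM), melanocyte (15.9 to 24.5 against 94.4 to 123 CPM) and pericyte markers (138 to 193 against 311 to 440 CPM) were lower in every one, and the part of any of these was not tested either. Without tdT+ SCA-1+ replicate 2 the median within tdT+ cells was -0.02, with 34 of 79 positive. Without the library labelled tdT+ bulge replicate 2 it was 0.05, with 50 positive. It was 0.29 without tdT+ bulge replicate 1 or tdT+ SCA-1+ replicate 3, and 0.28 without tdT+ SCA-1+ replicate 1.

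**Figure D4:**
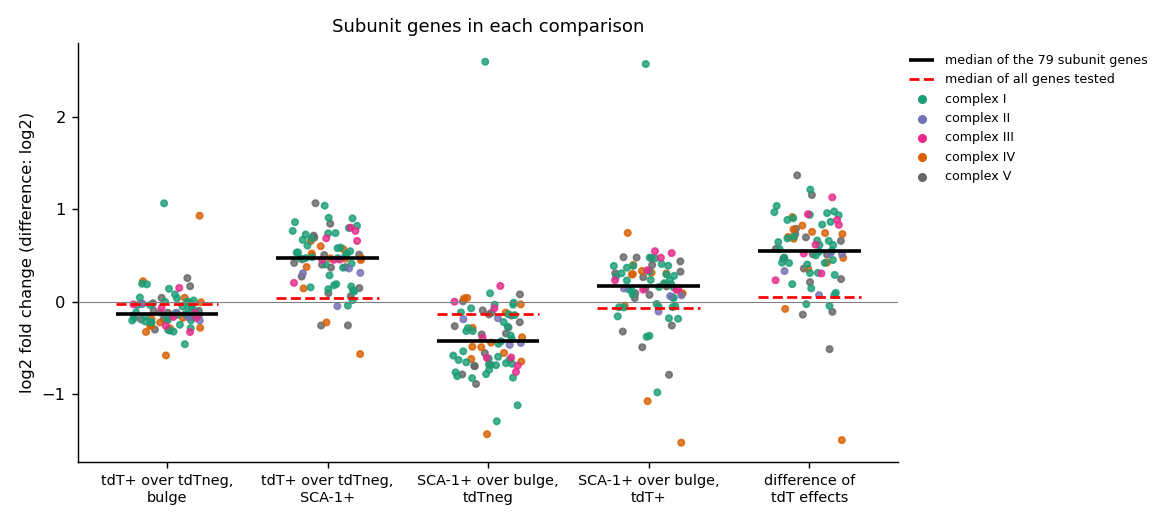
Log2 fold change (y axis) of the 79 tested genes, coloured by complex, in 4 comparisons and in the difference of the tdT effects, with the median of the set (black line) and of all genes tested (red dashed line). The set lies above the median of all genes for tdT+ over tdTneg SCA-1+ cells and below it for SCA-1+ over bulge cells within tdTneg. Both comparisons use the same tdTneg SCA-1+ libraries.

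Between tdT+ and tdTneg SCA-1+ cells, 0 of the 79 subunit genes passed in edgeR in either direction, where the background was 0.335% higher and 2.22% lower. At an unadjusted p under 0.05, 23 were higher and 0 lower (background 5.17% and 9.42%). After adjustment limma voom called 0 (background 5.71%), and DESeq2 called Ndufa7 and Ndufv3 (2.53%, background 7.14%). Positive fold changes were found for 73 of 79 genes, with a median of 0.47 against 0.04 over all genes. In 53 genes (67.1%, background 15.8%) every tdT+ library lay above both tdTneg libraries, and in 0 genes all tdT+ libraries lay below (background 17.2%). By complex these were 25 of 37 in complex I, 0 of 4 in complex II, 7 of 8 in complex III, 10 of 13 in complex IV and 11 of 17 in complex V.

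The size of this difference depended on single libraries. The count at an unadjusted p under 0.05 was 5 without tdTneg SCA-1+ replicate 1 (6.33%, beside 10.2% of all genes), 8 without replicate 2 (10%, beside 7% of all genes) and 12 with limma voom (15.2%, beside 18.6%). Without tdT+ SCA-1+ replicate 2 the median was 0.23, against -0.01 over all genes, and 3 genes had an unadjusted p under 0.05 (3.80%, beside 13.3% of all genes). In that fit 60 of 79 were positive. The tdTneg SCA-1+ libraries were also those with the endothelial markers (3649 and 3889 CPM against 47.3 to 129 CPM in tdT+ SCA-1+ libraries), the tdT+ ones those with more T cell markers, and the other lists named at the start separated the same libraries. The part of any of these in the result was not tested.

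Individual genes give the scale, chosen here after their values were seen. Ndufv3, an accessory subunit of complex I, was at 63.2, 64.6 and 56.8 CPM in tdT+ against 38.8 and 41.9 CPM in tdTneg SCA-1+ libraries, a log2 fold change of 0.61 (SE 0.17, edgeR adjusted p = 0.104). Atp5k, which encodes subunit e of complex V, was at 41.3, 73.8 and 34.2 CPM against 18.5 and 29.0 CPM, a log2 fold change of 1.07 (SE 0.36, edgeR adjusted p = 0.193). Replicate 2 was the highest for both genes, by far for Atp5k. Among the core subunits, Ndufs1 had a log2 fold change of 0.02 (95% interval -0.29 to 0.32), Sdha, the flavoprotein of complex II, -0.05 (-0.33 to 0.23) and Atp5a1 0.09 (-0.27 to 0.46). Ndufa4l2 had 1.04 (SE 0.47, adjusted p = 0.348).

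Between tdT+ and tdTneg bulge cells, 0 of 79 passed in edgeR (background 0.00985% higher and 0% lower), DESeq2 (background 1.97%) or limma voom (background 0.817%). At an unadjusted p under 0.05 in edgeR 1 was higher and 0 lower (background 4.56% and 3.86%). That gene was Ndufa4l2, with a log2 fold change of 1.06 (SE 0.41, adjusted p = 0.522). Its highest bulge library was the one labelled tdT+ replicate 2. Without that library 0 of 79 genes had an unadjusted p under 0.05, beside 7.36% of all genes. The same count was 0 without tdTneg bulge replicate 2 or 3, beside 12.3% and 5.07% of all genes. It was 2 without tdT+ bulge replicate 1 (beside 6.99%) and 3 without tdTneg bulge replicate 1 (beside 5.65%). The median was -0.14 against -0.03 over all genes, and 17 of 79 were positive. The same groups did not overlap in the sums of keratinocyte (21205 to 28257 in tdT+ against 29331 to 32528 CPM in tdTneg), T cell (87.2 to 112 against 26.9 to 38.7 CPM) and interfollicular markers (2772 to 4742 against 1357 to 2742 CPM), whose part was not tested. Without tdTneg bulge replicate 3 the median was -0.01, and without the library labelled tdT+ bulge replicate 2 it was -0.05. Without tdTneg bulge replicate 1 it was -0.25 and without tdT+ bulge replicate 1 it was -0.22. In 2 genes every tdT+ library lay below every tdTneg library (2.53%, beside 10.9% of all genes), and in 27 without tdTneg bulge replicate 1 (34.2%, beside 14.1%).

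The tdT effect was compared between the gates as the difference of the 2 log2 fold changes. In edgeR 0 of 79 genes passed, beside 0.00985% of all genes higher and 0.379% lower, and DESeq2 (background 4.12%) and limma voom (background 3.4%) also called 0. At an unadjusted p under 0.05, 18 were higher and 0 lower (background 4.77% and 7.63%). This count was 2 without tdTneg SCA-1+ replicate 1, 4 without tdT+ SCA-1+ replicate 2, 7 without tdTneg bulge replicate 3 or the library labelled tdT+ bulge replicate 2, 9 without tdTneg SCA-1+ replicate 2, 11 without tdTneg bulge replicate 2 and up to 32 (without tdTneg bulge replicate 1). In these fits 7.33 to 15.1% of all genes had such a p. RLE size factors, DESeq2 and limma voom gave 8, 9 and 8, beside 11.3%, 13% and 19.0% of all genes. The replicate block gave 11 (13.9%, beside 10.7%). A filter of 10 counts in every library gave 9 of 77 (11.7%, beside 13.3%). The difference was positive in 72 of 79 genes with a median of 0.55 against 0.05 over all genes (0.44 against -0.07 with RLE size factors). The marker sums that separated tdT+ from tdTneg libraries in either gate came from the same libraries, and their part was not tested. Without tdT+ SCA-1+ replicate 2 the median was 0.29, and without the library labelled tdT+ bulge replicate 2 it was 0.47.

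The median SD within groups was 0.30 on the log2 scale over the 79 genes, 0.38 over all genes, and 0.23 over 3849 other genes with levels between the quartiles of the set. It was lowest for Sdha (0.09), Atp5b (0.11), Ndufs1 (0.12) and Atp5a1 (0.12) and highest for Ndufa4l2 (0.58). Atp5g2 (0.51), Ndufa1 (0.50) and Uqcr11 (0.47) followed below it.

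The 13 subunits encoded by mitochondrial DNA gave another reading of the same complexes. Of these, 6 were listed at 0 in every library and 7 passed the filter. The 0 values do not by themselves show a lack of transcript. Between SCA-1+ and bulge cells as the mean over tdT status, 4 of the 7 were lower and 0 higher, beside 10.4% and 8.88% of all genes. Within tdT+ cells 1 of the 7 was called lower in edgeR, and within tdTneg cells 0 were, with 4 lower at an unadjusted p under 0.05 (background 10.4%) and 4 called by DESeq2 (background 14.3%) and by limma voom (background 21%). The 4 genes called over both were mt-Nd1 (log2 fold change -0.78, SE 0.19, edgeR adjusted p = 0.0202), mt-Nd2 (-0.78, SE 0.19, adjusted p = 0.0189), mt-Nd4 (-0.69, SE 0.13, adjusted p = 0.00633) and mt-Cytb (-0.74, SE 0.16, adjusted p = 0.0119). Of these mt-Nd4 was named after its values were seen. The first 3 belong to the membrane arm of complex I, and mt-Cytb is the cytochrome b of complex III.

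The sum of the mitochondrial DNA-encoded subunits covers only the 7 of 13 with counts. It was 20485 to 32868 CPM in tdTneg bulge and 18183 to 18694 CPM in tdT+ bulge libraries. In SCA-1+ cells it was 15505 and 17665 CPM in tdTneg and 12382 to 13596 CPM in tdT+ libraries. Set against the nuclear-encoded sum, the ratio was 3.13 to 4.73 in tdTneg bulge and 2.85 to 3.62 in tdT+ bulge libraries. It was 3.32 and 2.84 in tdTneg SCA-1+ and 1.501 to 2.171 in tdT+ SCA-1+ libraries. The tdT+ SCA-1+ libraries were the lowest on both scales, and the other 3 groups overlapped in the ratio. These libraries also had the highest T cell, keratinocyte and interfollicular marker sums and the lowest bulge, melanocyte and pericyte sums. The part of any of these in the ratio was not tested. Without the library labelled tdT+ bulge replicate 2 (3.62), both tdT+ bulge libraries (2.85 and 3.129) lay below the tdTneg bulge libraries, by a small margin to the lowest of them (3.135).

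**Figure D5:**
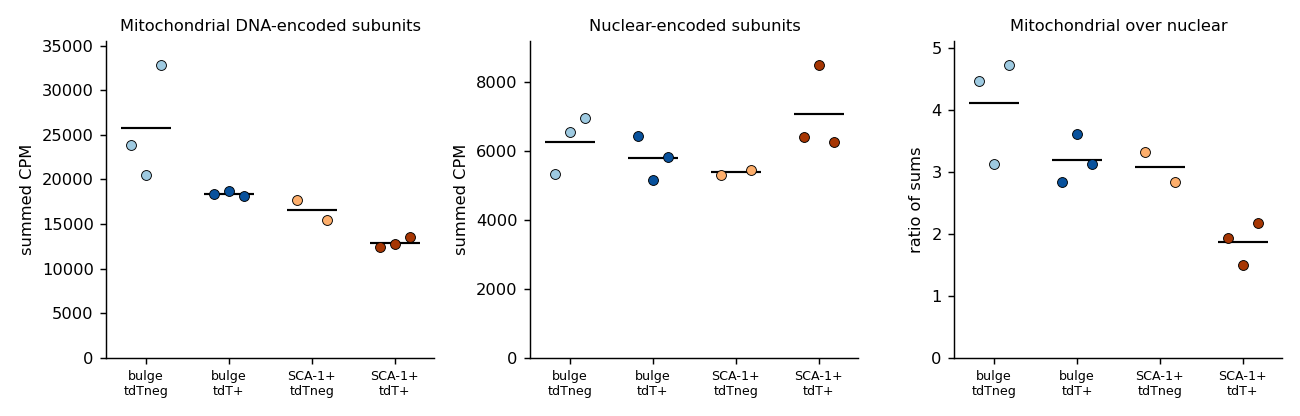
Summed CPM of the mitochondrial DNA-encoded subunits, of the nuclear-encoded subunits, and the ratio of the 2 sums (y axes, from 0) in the 11 libraries (points) by group, with group means as lines. The mitochondrial sum covers the 7 of 13 subunits with counts. The 3 tdT+ SCA-1+ libraries have ratios of 1.501 to 2.171, below all others.

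Other genes of mitochondrial respiration were counted in the comparison of SCA-1+ with bulge cells. Of 16 genes of the tricarboxylic acid cycle and pyruvate dehydrogenase 2 were higher and 0 lower, beside 8.88% and 10.4% of all genes. Cs, citrate synthase, was at 343 CPM ± 41.5 (SD, n = 5) in SCA-1+ and 211 CPM ± 11.2 (SD, n = 6) in bulge cells, a log2 fold change of 0.66 (SE 0.09, edgeR adjusted p = 0.00095). Dlst, of the 2-oxoglutarate dehydrogenase complex, was at 0.35 (SE 0.11, adjusted p = 0.0494; 0.0602 with the replicate block). Among 12 regulators of mitochondrial biogenesis Pprc1, a coactivator of the PGC-1 family, was higher by 0.63 (SE 0.09, edgeR adjusted p = 0.00163), and 0 were lower. With the replicate block Ppargc1a, which encodes PGC-1alpha and was named after its values were seen, was also called, as lower (adjusted p = 0.0386, against a log2 fold change of -1.17 and an adjusted p of 0.112 in edgeR without it), and DESeq2 called 4 of the 12 (background 28.2%).

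Of 17 assembly factors of complex IV, Cox17, a copper chaperone, was lower, with a log2 fold change of -0.84 (SE 0.26, edgeR adjusted p = 0.0487). Of 13 electron carriers and coenzyme Q genes, Coq6 was lower, at -0.53 (SE 0.11, edgeR adjusted p = 0.0105). Neither list had a gene called higher, and 10.4% of all genes were lower and 8.88% higher. No assembly factor of complexes I, II, III or V passed, of 14, 4, 6 and 3 tested. At an unadjusted p under 0.05, 1 of them was lower (background 19.7%), and neither DESeq2 nor limma voom called any. Of 77 mitochondrial ribosome genes 0 passed in edgeR, with 2 higher and 2 lower at an unadjusted p under 0.05, while DESeq2 and limma voom called 2 each, all below the backgrounds given for the core subunits. In the comparison of tdT+ with tdTneg SCA-1+ cells 0 of these 77 passed in edgeR, 11 were higher and 0 lower at an unadjusted p under 0.05 (background 5.17% and 9.42%), DESeq2 called 1 (background 7.14%) and limma voom 0 (background 5.71%). The median was 0.34 against 0.04 over all genes, with 73 positive. The marker sums that separated these libraries were those given for the subunit genes, and their part was not tested.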

How the data were processed

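RNA of sorted epidermal cells was sequenced in 11 libraries. The deposited values are raw counts per Ensembl 96 (GENCODE M21) gene, which the authors made, per the submitters' processing notes, with bcl2fastq 2.20.0.422, FastQC, STAR and featureCounts on mm10. Strand setting and handling of multimapping reads are not given in the sources used here. From these counts, 1 model over all 4 groups was fitted with edgeR 4.0.16 (quasi-likelihood test, TMM, filterByExpr, R 4.3.3) to 20307 genes, and p-values were adjusted by Benjamini-Hochberg over all of them. A gene was called at an adjusted p under 0.05. Alternatives used DESeq2 1.42.0, limma voom 3.58.1, other scalings and filters, a replicate block, and each library left out. The members and lists were chosen with earlier results of these data known. Named genes were, per comparison, up to 10 called rises and 10 falls, the core subunits, the isoform pairs, the highest and lowest gene per complex, untested genes and up to 3 called genes per list and direction. Outside this rule, and chosen after values were seen, stand Ndufa7, Ndufv3, Atp5k, Ndufa1, Uqcr11, mt-Nd4, Ppargc1a, Shmt2 and Vmac. The study describes 3 biological replicates of 2 mice each, sorted into the 4 gates, so equal replicate numbers were read as shared pools. Residuals of 15 such pairs correlated with a median of 0.08, and 30 others with -0.02. The block also carries age. TPM used exon unions. The fit was tested on simulated data.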

Additional observations from a re-analysis of the deposited data

Results flagged for a closer look

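Cox5a, a nuclear-encoded subunit of complex IV from the list of core subunits, had fold changes of opposite sign with tdT status in the 2 gates. Neither passed. Every tdT+ bulge library (31.8, 25.6 and 30.3 CPM) lay below every tdTneg bulge library (32.0, 44.0 and 34.1 CPM), a log2 fold change of -0.33 (SE 0.21, edgeR adjusted p = 0.721). In SCA-1+ cells every tdT+ library (42.3, 65.6 and 39.2 CPM) lay above both tdTneg libraries (36.4 and 39.1 CPM), a log2 fold change of 0.38 (SE 0.24, adjusted p = 0.548). The difference of the 2 effects was 0.70 (SE 0.32, unadjusted p = 0.0551, edgeR adjusted p = 0.420), so the test of the difference did not pass. Without the library labelled tdT+ bulge replicate 2 (25.6 CPM) the bulge value was -0.24 (SE 0.24, edgeR adjusted p = 0.885) and the difference 0.62 (SE 0.35, adjusted p = 0.570). Without tdT+ SCA-1+ replicate 2 (65.6 CPM) the SCA-1+ value was 0.05 (SE 0.18, adjusted p = 0.967) and the difference 0.35 (SE 0.24, edgeR adjusted p = 0.662). The nearest libraries were close in both gates, at 31.8 against 32.0 CPM and 39.2 against 39.1 CPM.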

How the results depend on the processing

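Of 230 recomputed counts of called genes and medians, 215 stayed within 1.5 times the reported count, or within 0.208 (1 SD between replicates, log2) of the reported median, and 15 moved. That margin exceeds 3 of the 6 medians. Among the 215, 1 median changed sign: within tdT+ cells it was 0.17 and, without tdT+ SCA-1+ replicate 2, -0.02. DESeq2 called 2 genes for tdT+ against tdTneg SCA-1+ cells, 7 for SCA-1+ against bulge cells, 6 within tdT+ and 4 within tdTneg cells (2.53, 8.86, 7.59 and 5.06% of the set, beside 7.14, 28.2, 22.9 and 14.3% of all genes), and limma voom called 6 within tdTneg cells (7.59%, beside 21%). Within tdT+ cells, 1 gene was called with only the groups compared (1.28%, beside 10.6% of all genes). With the fold threshold 1 was higher and 0 lower, beside 591 higher and 1124 lower of all 20307 genes. The following counts leave out 1 library at a time and keep at least 2 in every group. For SCA-1+ against bulge cells 3 to 5 genes were called (3.80 to 6.33%, beside 14.99 to 19.98% of all genes). Within tdT+ cells 1 to 4 were called (1.27 to 5.06%, beside 7.58 to 15.6%), with 1 without tdT+ bulge replicate 3 (beside 11.8%). Within tdTneg cells 0 to 2 were called (0 to 2.53%, beside 1.10 to 7.93%), with 0 without tdTneg bulge replicate 3 (beside 1.10%). Without tdTneg SCA-1+ replicate 1 or 2, with 1 library left in that group, the medians were -0.12 and -0.10 for SCA-1+ against bulge cells. Within tdTneg cells both were -0.42. The median for tdT+ against tdTneg SCA-1+ cells ranged from 0.23 to 0.56 and that of the difference of tdT effects from 0.29 to 0.67, both lowest without tdT+ SCA-1+ replicate 2. The cause was not tested. With the replicate block, 1 higher and 2 lower genes were called for SCA-1+ against bulge cells, since Ndufs4 missed the threshold (adjusted p = 0.0875), and the block changed no other subunit call. Without a tdTneg SCA-1+ library the lone library left was assumed to vary like the other groups. With 2 or 3 libraries per group, the median half-width of the 95% interval was 0.60 on the log2 scale for tdT+ against tdTneg SCA-1+ cells and 0.40 for SCA-1+ against bulge cells.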
